A study of Mus musculus with 14 samples.

Results

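The comparison concerns 2 tumours taken on day 6 of treatment with PLX4032 and 4 control tumours, 6 of the 14 tumours of the series. PLX4032 (vemurafenib) inhibits the BRAF kinase. The members are the table columns that carry the names of these groups: 2 for PLX4032 day 6, 2 for controls of day 3 and 2 for controls of day 6. All grew from SMM102, a mouse melanoma cell line, injected subcutaneously into female C57BL/6J mice aged 6 to 8 weeks, with 100000 cells per injection and 2 injections per mouse. Dosing started once tumours measured 150 to 300 mm3, and the treated mice received PLX4032 at 50 mg/kg by the intraperitoneal route on 5 days per week. The controls are untreated in the sample labels and received vehicle in the series' design text. No gene alteration is given for the mice, and whether SMM102 is 1 clone is not stated. The labels carry different animal numbers for the tumours within each of these groups, but the columns do not show which animal they belong to, so tumour 1 and tumour 2 are only names. A day 6 control has the animal number of a tumour treated for 3 days, and whether they shared a mouse is not stated. RNA came from whole frozen tumours, so cancer cells and the host cells of an immune-competent mouse were measured together.

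BRAF passes growth signals from RAS to MEK and ERK, and ERK in turn switches on genes such as Etv4, Dusp6 and Ccnd1, several of which feed back on the pathway. Melanomas with an activated BRAF often depend on this route. MHC class I molecules show peptides from inside a cell to CD8 T cells. Their genes, the transporter Tap1 and the immunoproteasome subunits are induced by interferons, which act through STAT and IRF proteins at the ISRE and GAS motifs of promoters. T cells and NK cells release interferon-gamma, perforin and granzymes. Monocytes, macrophages and dendritic cells carry receptors of their own, such as those encoded by Cd300e, Clec12a and Sirpb1a.

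The values are an expression signal per gene, on a scale like that of TPM. The 6 column totals ran from 932813 to 1084401, and without counts the depth behind each value is unknown. The labelled tissue had a limited trace in its own markers. Mitf, the melanocyte master regulator, was at 2.56 and 3.12 in the treated tumours and at 2.76 to 4.73 in the controls. Sox10 stayed at or below 0.177 and Pmel at or below 0.794 in all 6 tumours, while Mlana, Dct, Tyr and Tyrp1 were not analysed here. In bulk tumours, fewer cells of a type and less RNA per cell cannot be told apart. Xist, which female cells express, had 27.3 and 36.1 under PLX4032, with controls from 7.98 to 24.7. The Y-linked Ddx3y was at 13.7 and 7.87 against 17.4 to 25.0. Ptprc, which encodes the leukocyte antigen CD45, was at 57.3 in treated tumour 1 and 140.3 in treated tumour 2, against 6.01 to 29.2 in the controls. Mir6236 made up 0.964% and 0.933% of the signal in the treated tumours but 1.55%, 2.96%, 5.87% and 0.745% in the controls of day 3 (tumours 1 and 2) and day 6 (tumours 1 and 2). The part of these differences in the results below was not tested.

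After 6 days of treatment, genes of interferon responses, MHC class I presentation, T cells and monocytes stood higher than in the controls, and a smaller set with Glp1r, Nptx1, Ano1 and Lama5 stood lower. Genes were tested on log2(value + 1), with limma, for the difference between the treated group and the mean of both control groups. Of 15841 genes, 937 passed an adjusted p of 0.05 (5.92%), 711 higher (4.49%) and 226 lower (1.43%). Both treated tumours lay above all 4 controls for 2566 genes (16.2%) and below all of them for 2030 (12.8%). Among the called genes the treated tumours were not equal in their difference from the controls. Among the 711 higher genes the median difference from the controls was 1.11 log2 units in tumour 1 and 2.02 in tumour 2, and tumour 2 exceeded tumour 1 in 669 of them. Among the 226 lower genes the medians were -0.75 and -0.97. Both tumours entered the test that picked these genes, so the medians describe the called genes only. Over all genes the medians were 0.011 in tumour 1 and 0.016 in tumour 2.

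**Figure D1:**
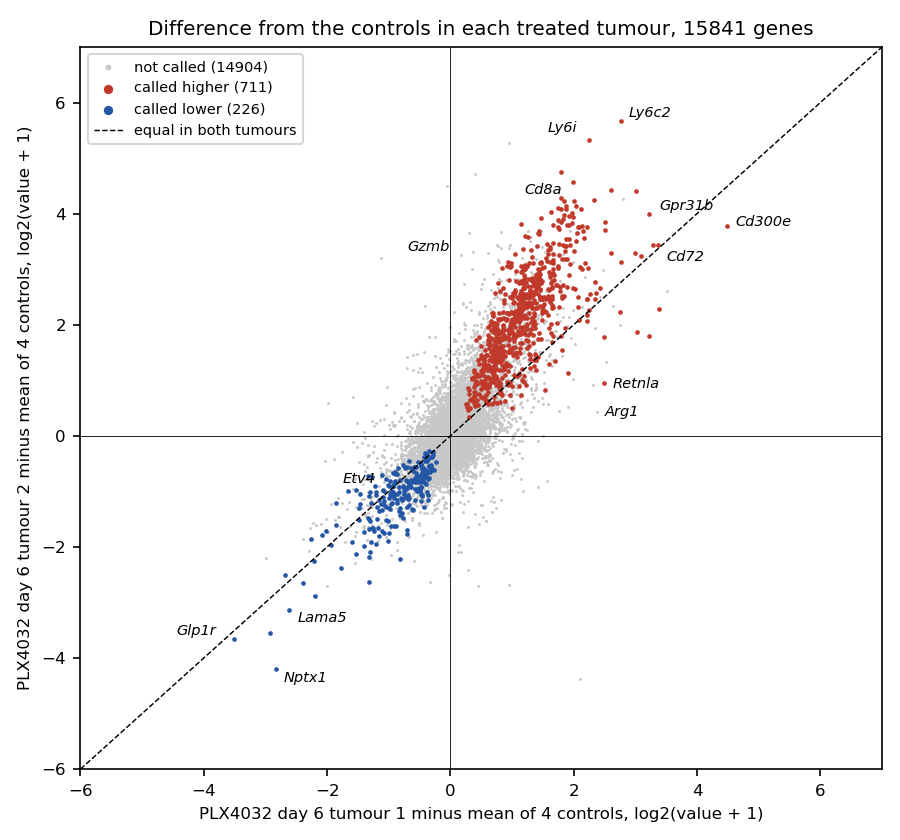
Difference of each PLX4032 day 6 tumour from the mean of the 4 controls for 15841 genes, on the log2(value + 1) scale, with tumour 1 on the horizontal and tumour 2 on the vertical axis; red points are the 711 genes called higher, blue points the 226 called lower. Most red points lie above the dashed line of equal change (669 of 711), while Cd300e, Gpr31b and Cd72 lie near it, and Gzmb lies at 0.17 for tumour 1 and 3.25 for tumour 2.

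These calls depend on which tumours enter the fit. The spread of all 6 groups of the series is shared. The 4 tumours of day 27 count as separate samples though they come from 2 mice, so the p-values may be too small. By how much was not tested. A fit without day 27 called 1 gene, Gpr31b, and a fit on the compared tumours alone called 0, with 2576 genes at an unadjusted p under 0.05 in the latter. Without treated tumour 2 the count was 1 (Retnla), without treated tumour 1 it was 1368, without control day 3 tumour 2 it was 0 (2716 at an unadjusted p under 0.05), without control day 6 tumour 1 it was 2145 and without control day 6 tumour 2 it was 26. Set against control day 3 alone 0 genes passed, and against control day 6 alone 8. The split of the calls moved with the scaling: 1145 higher and 123 lower with all columns rescaled to the same sum, and 718 higher and 471 lower with quantile normalisation. The values of single tumours are therefore given beside each result. Values of the controls are listed below in the order day 3 tumour 1, day 3 tumour 2, day 6 tumour 1 and day 6 tumour 2.

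**Figure D2:**
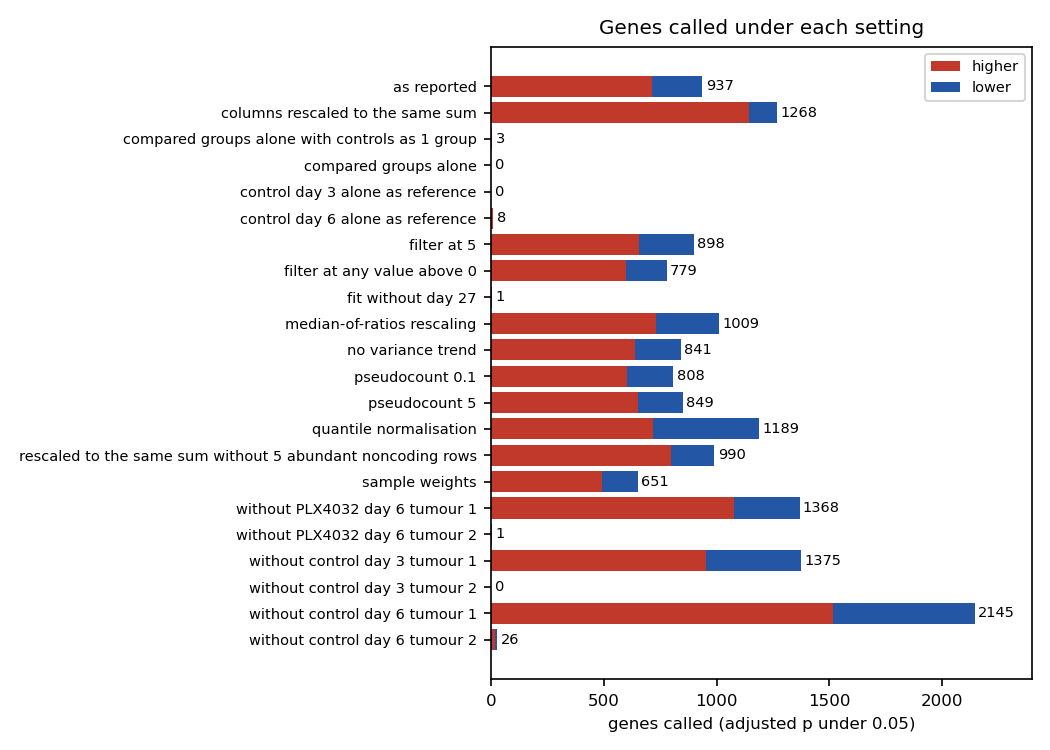
Number of genes called in PLX4032 day 6 against controls at an adjusted p under 0.05, as reported (937) and under 21 alternatives, with higher genes in red and lower genes in blue. The counts run from 0 to 2145, and each of the settings with 26 calls or fewer leaves out tumours, leaves out a control group or fits the compared tumours alone.

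All 19 tested genes of MHC class I presentation rose at day 6, with both treated tumours above every control. Of all genes 4.49% rose, and 16.2% had both treated tumours above every control. This list, like the others, was chosen with earlier results of these data known, so its counts are a description. The list's median difference was 1.13 log2 units in treated tumour 1 and 2.28 in treated tumour 2, where the median of all genes was 0.01 and 0.02. B2m, the light chain of every class I molecule, was at 4601 and 7804 in the treated tumours against 2973, 3234, 2697 and 2148 in the controls. Its difference was 1.13 log2 units (SE 0.26, limma adjusted p = 0.0368), the level of tumour 2 standing well above that of tumour 1. H2-K1, a class I heavy chain, was at 1797 and 3564 against 850.4, 741, 769 and 355, a difference of 1.97 (SE 0.39, adjusted p = 0.0337). The H2 genes are near-identical copies whose reads the authors' counting could have split, so single H2 values are uncertain. Tap1, which carries peptides into the endoplasmic reticulum, was at 128 and 325 against 75.1, 56.8, 53.8 and 30.9, a difference of 1.96 (SE 0.38, adjusted p = 0.0337). Psmb9, an immunoproteasome subunit, was at 123 and 314 against 25.7 to 63.2. Nlrc5, the transactivator of class I genes, was at 62.4 and 156 against 17.0 to 36.5, and Erap1, which trims peptides, at 57.9 and 84.5 against 25.8 to 38.1. Each of the 3 passed the test with an adjusted p of 0.0337, the value that many genes shared.

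The type I interferon list had the highest median difference of the 40 gene lists described. Of its 28 tested genes 24 rose, and for all 28 both treated tumours lay above every control. Of all genes 4.49% and 16.2% did. The list's median difference was 1.79 log2 units in tumour 1 and 3.39 in tumour 2. Isg15, a ubiquitin-like modifier, was at 354 and 1291 against 201, 39.2, 127 and 71.4. Its difference was 2.86 (SE 0.66, adjusted p = 0.0368). The controls were themselves unequal here: both tumours numbered 1 stood above both tumours numbered 2 for Isg15, Irf7 and Ifit3. Irf7, a transcription factor that amplifies interferon production, was at 198 and 768 against 100.3, 18.2, 100.6 and 31.6, a difference of 2.96 (SE 0.72, adjusted p = 0.0416). Zbp1, a sensor of unusual nucleic acids, was at 99.5 and 419 against 17.7 to 48.0, and Oasl1 at 33.7 and 134.6 against 2.46 to 14.7. Ifit3 was at 214 and 818 against 122, 15.03, 96.1 and 41.8 and did not pass (adjusted p = 0.0508). Ifit2, Mx1 and Mx2 did not pass either.

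Of 23 genes of the interferon-gamma response 17 rose, where 4.49% of all genes did. The list's medians were 1.18 log2 units in tumour 1 and 2.99 in tumour 2. Irf1, a transcription factor that interferon induces, was at 167 and 389 against 122, 100.1, 95.7 and 103, a difference of 1.28 (SE 0.27, adjusted p = 0.0337). Irf1 in tumour 1 was thus only a little above the highest control. Gbp3, a guanylate-binding GTPase, was at 105 and 331 against 58.7, 27.0, 40.8 and 29.1, a difference of 2.30 (SE 0.47, adjusted p = 0.0337). Cxcl10, a chemokine that draws activated T cells, was at 275 and 1407 against 144, 68.4, 70.8 and 62.0, a difference of 2.92 (SE 0.62, adjusted p = 0.0337). Cxcl9, a ligand of the same receptor, was at 100.2 and 471 against 66.9, 52.5, 32.7 and 22.9 and did not pass (adjusted p = 0.0518).

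Promoter sequences are shown for 3 of these genes because each window holds the motif on which its interferon factor is known to act. The windows run from 250 bases before to 50 bases after the gene start, on GRCm38.p6, from RefSeq. All 3 lie on the plus strand and are written 5′ to 3′ along it. Capitals mark the motif, which is an ISRE core (GAAA, any 2 bases, GAAA) in B2m and Gbp3, found on the minus strand in Gbp3 as 2 overlapping matches, and a GAS motif (TTCNNNGAA) in Irf1. For Irf1 and Gbp3 the first of 2 starts in the table is shown, and the window of the second start held neither motif. The windows lie at chr2:122147437-122147736 for B2m, chr11:53769764-53770063 for Irf1 and chr3:142559794-142560093 for Gbp3.
B2m: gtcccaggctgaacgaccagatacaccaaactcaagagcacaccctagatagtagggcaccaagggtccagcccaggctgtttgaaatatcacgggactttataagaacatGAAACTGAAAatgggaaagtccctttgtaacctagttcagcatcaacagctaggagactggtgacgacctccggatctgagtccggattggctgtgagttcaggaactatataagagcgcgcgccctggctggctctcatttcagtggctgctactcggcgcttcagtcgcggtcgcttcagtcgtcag
Irf1: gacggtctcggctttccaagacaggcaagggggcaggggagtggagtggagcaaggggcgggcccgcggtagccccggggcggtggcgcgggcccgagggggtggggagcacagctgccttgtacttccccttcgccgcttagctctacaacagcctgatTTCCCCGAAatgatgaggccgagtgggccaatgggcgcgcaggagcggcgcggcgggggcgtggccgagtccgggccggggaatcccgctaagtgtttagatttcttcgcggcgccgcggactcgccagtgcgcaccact
Gbp3: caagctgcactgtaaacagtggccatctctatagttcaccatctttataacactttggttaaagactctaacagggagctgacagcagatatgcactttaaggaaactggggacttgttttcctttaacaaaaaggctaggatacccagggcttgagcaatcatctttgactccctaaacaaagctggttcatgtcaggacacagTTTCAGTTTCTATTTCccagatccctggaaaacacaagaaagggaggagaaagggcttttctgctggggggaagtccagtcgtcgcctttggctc

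Both motifs were searched on both strands in the promoters of all tested genes that the RefSeq table held, 10924 of 15841. The ISRE core occurred in 431 of them (3.95%) and the GAS motif in 915 (8.38%). Among the 509 higher genes with a promoter, 90 held the ISRE core (17.7%) and 61 the GAS motif (12%). Among the 158 lower genes with a promoter, the counts were 5 (3.16%) and 8 (5.06%). Of the interferon-gamma list 11 of 17 held the ISRE core (64.7%) and 9 the GAS motif (52.9%). Of the type I list the counts were 11 (57.9%) and 3 (15.8%) of 19, and of the MHC class I list 4 (25%) and 2 (12.5%) of 16. The windows of Tap1, H2-K1, Cd274 and Cxcl9 held neither set of letters. These matches describe sequence and were not tested.

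Genes of T cells rose with a wide gap between the treated tumours. Of 24 T cell genes 18 rose, and for 21 both treated tumours lay above every control. Of all genes 4.49% and 16.2% did. The list's medians were 1.28 log2 units in tumour 1 and 2.80 in tumour 2. Cd8a, a chain of the CD8 co-receptor, was at 10.0 and 50.6 against 2.21, 1.29, 1.79 and 1.76, a difference of 3.12 (SE 0.60, adjusted p = 0.0337). Cd3e, a chain of the T cell receptor complex, was at 8.12 and 27.1 against 3.34, 1.37, 2.28 and 1.05, a difference of 2.47 (SE 0.50, adjusted p = 0.0337). Lck, the kinase that starts T cell receptor signalling, was at 18.3 and 53.9 against 3.20 to 7.53, and Cd27, a co-stimulatory receptor, at 8.59 and 25.5 against 0.516 to 3.32. Both passed the test. Cd4, the co-receptor of helper T cells, was at 7.34 and 14.2 against 4.74, 1.69, 7.87 and 2.26, so tumour 1 lay inside the control range and the gene did not pass (adjusted p = 0.225).

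Genes of the killing machinery itself were far apart in the treated tumours. Gzmb, which encodes granzyme B, was at 20.01 in tumour 1 and 176.9 in tumour 2, against 20.5, 16.9, 19.0 and 14.7 in the controls. Prf1, which encodes perforin, was at 5.77 and 27.1 against 9.24, 8.60, 9.01 and 10.3, so tumour 1 was below and tumour 2 above every control. Neither passed the test (adjusted p = 0.185 and 0.706). Ifng, interferon-gamma itself, was at 1.71 and 13.4 against 1.34, 0.464, 0.294 and 0.456 and did not pass (adjusted p = 0.0575). Ncr1, an activating receptor of NK cells, was at 3.21 and 13.1 against 1.41, 1.46, 3.37 and 1.29 (adjusted p = 0.076). Other genes of the list were above the controls in both treated tumours. Nkg7, a granule membrane protein, was at 27.9 and 125 against 11.1, 6.42, 10.3 and 5.79, a difference of 2.73 (SE 0.60, adjusted p = 0.0357). Klrk1, the receptor NKG2D, was at 20.8 and 87.1 against 2.92 to 7.93, and Ctsw, a lysosomal protease of killer cells, at 27.4 and 73.1 against 3.97 to 11.3. In all, 12 of 20 cytotoxic and NK cell genes rose, where 4.49% of all genes did. The median difference of the 20 was 0.94 log2 units in tumour 1 and 2.78 in tumour 2.

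**Figure D3:**
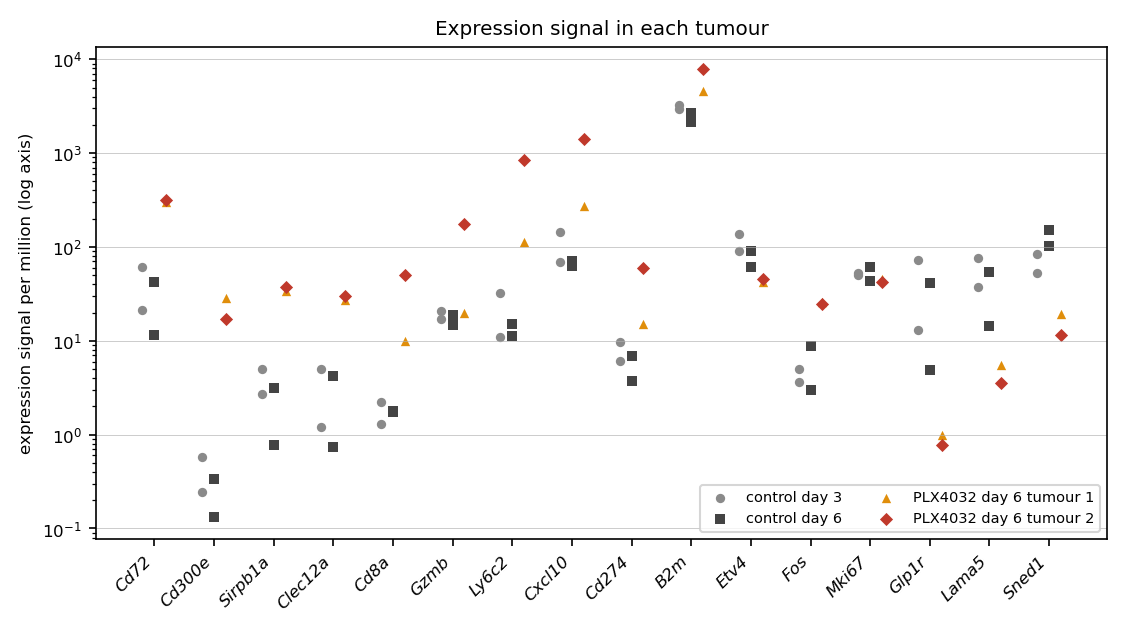
Expression signal of 16 genes in each of the 6 tumours on a log axis, with circles for control day 3, squares for control day 6, the triangle for PLX4032 day 6 tumour 1 and the diamond for tumour 2. Cd72, Cd300e, Sirpb1a and Clec12a differ by less than 1 log2 unit between the treated tumours, while Gzmb is at 20.01 in tumour 1, within the control range, and at 176.9 in tumour 2.

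Several receptor genes, most of them of myeloid cells, rose with less than 1 log2 unit between the treated tumours. Sirpb1a, a signal-regulatory receptor of myeloid cells, was at 34.1 and 37.7 against 5.07, 2.71, 3.15 and 0.770, a difference of 3.36 log2 units (SE 0.40, adjusted p = 0.0185). Clec12a, an inhibitory lectin receptor, was at 27.3 and 30.2 against 4.99, 1.19, 4.24 and 0.742, a difference of 3.17 (SE 0.52, adjusted p = 0.0337). Cd300e, an activating receptor of monocytes, was at 28.6 and 16.9 where no control exceeded 0.576, a difference of 4.13 (SE 0.70, adjusted p = 0.0337), and here tumour 1 was the higher one. Gpr31b, a G protein-coupled receptor, was at 14.6 and 25.5 against 1.09, 0.559, 0.715 and 0.384, a difference of 3.61 (SE 0.36, adjusted p = 0.0114). Cd72, a co-receptor best known from B cells and listed with them, was at 303 and 320.2 against 61.0, 21.3, 42.3 and 11.7, a difference of 3.41 (SE 0.50, adjusted p = 0.0337). Itgam, the integrin CD11b, was at 62.1 and 74.0 against 23.01, 15.5, 17.7 and 3.57, a difference of 2.34 (SE 0.52, adjusted p = 0.0359).

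Other rises among monocyte genes were much larger in treated tumour 2. Ly6c2, a surface marker of inflammatory monocytes, was at 113 and 854 against 32.3, 11.1, 15.1 and 11.4. Its difference was 4.22 log2 units (SE 0.78, adjusted p = 0.0337). Ly6i, a close relative of Ly6c2, was at 17.5 and 154.6 against 0.792 to 6.73, and reads could have been split between such copies. Ms4a4c was at 91.9 and 329.9 against 4.93 to 41.8, Plac8 at 117 and 701 against 13.4 to 55.4, and Slfn4, an interferon-induced gene of monocytes, at 18.6 and 152 against 2.14 to 8.01. All 4 were among the 12 largest rises, with adjusted p-values of 0.0337 (Ly6i, Ms4a4c and Plac8) and 0.0368 (Slfn4).

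Of 30 monocyte and macrophage genes 8 rose, although for 22 both treated tumours lay above every control. Of all genes 4.49% and 16.2% did. The median difference was 1.23 log2 units in tumour 1 and 1.70 in tumour 2. C1qa, a complement subunit made by macrophages, was at 698 and 882 against 396, 154, 576 and 149 (adjusted p = 0.0942). Adgre1, the macrophage antigen F4/80, was at 74.9 and 84.5 against 34.9, 8.77, 29.8 and 7.08 (adjusted p = 0.0742). Cd68, a lysosomal protein of macrophages, was at 121 and 157 against 97.0, 45.7, 87.1 and 37.9 (adjusted p = 0.0824). For these macrophage genes the controls again fell into higher tumours 1 and lower tumours 2, and none passed. Retnla, a gene of alternatively activated macrophages, rose from at most 0.901 in the controls to 7.12 and 1.78 (difference 1.72, SE 0.33, adjusted p = 0.0337). It had been at 63.6 and 50.1 in the PLX4032 day 3 tumours, and the difference between the days was -3.60 log2 units (limma adjusted p = 0.000196). Cd68 was also lower than at day 3, when it was at 367 and 404, by -1.48 log2 units (adjusted p = 0.0314). Against PLX4032 day 3, 5 of the 30 genes were lower and 0 higher at day 6, where 7.34% and 10.9% of all genes were.

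Among other leukocytes, 6 of 18 dendritic cell genes rose, where 4.49% of all genes did. Batf3, a factor needed for cross-presenting dendritic cells, was at 14.9 and 15.9 against 3.64, 1.37, 8.49 and 2.56, a difference of 1.90 (SE 0.41, adjusted p = 0.0339). Siglech, a receptor of plasmacytoid dendritic cells, was at 4.46 and 5.30 against 0.266 to 1.27, and Itgax, the integrin CD11c, at 38.9 and 80.1 against 4.46 to 30.7. Both passed. Xcr1 and Flt3 reached at most 1.39 and 1.85 and did not pass. Of 10 B and plasma cell genes 4 rose, Cd79b, Ighm, Mzb1 and Cd72. Ighm, an antibody heavy chain, was at 42.0 and 29.2 against 9.19, 2.59, 9.80 and 3.29, a difference of 2.49 (SE 0.64, adjusted p = 0.0467). Of 13 neutrophil genes and 12 mast cell genes 0 passed. Csf3r, the receptor for the growth factor of neutrophils, was at 18.9 and 36.9 against 10.4, 5.16, 12.4 and 2.31 (adjusted p = 0.0641), and S100a8 was at 7.88 and 8.29 against 5.11, 4.63, 12.4 and 0.705. Cpa3, a mast cell protease, was at 43.2 and 25.8 against 35.4, 17.8, 84.6 and 23.2, inside the control range.

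MHC class II genes, which present peptides to helper T cells, had a median difference of 1.28 log2 units. Of 13 genes 1 rose, H2-Ob, where 4.49% of all genes did. For 6 of the 13 both treated tumours lay above every control, as for 16.2% of all genes. Cd74, the invariant chain, was at 895 and 2292 against 927, 391, 613 and 255.5, so tumour 1 lay inside the control range (adjusted p = 0.128). H2-Aa was at 624 and 1524 against 504, 232, 396 and 147 (adjusted p = 0.104). Ciita, the transactivator of class II genes, was at 4.68 and 14.4 against 8.05, 3.45, 3.76 and 1.13 (adjusted p = 0.201). It had been at 34.8 and 25.8 at PLX4032 day 3 and was lower at day 6 by -1.73 log2 units (adjusted p = 0.0455).

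Genes of inhibitory receptors and their ligands rose too. Of 20 checkpoint and co-stimulatory genes 11 rose, where 4.49% of all genes did. The list's medians were 1.00 log2 units in tumour 1 and 1.97 in tumour 2. Pdcd1, which encodes PD-1, was at 4.53 and 24.2 against 1.76, 1.01, 2.17 and 1.06, a difference of 2.26 (SE 0.56, adjusted p = 0.0425). Cd274, which encodes its ligand PD-L1, was at 15.04 and 59.9 against 9.67, 6.08, 6.88 and 3.73, a difference of 2.10 (SE 0.47, adjusted p = 0.0362). For both genes tumour 1 was above every control as well, by less than tumour 2. Pdcd1lg2, the second ligand, was at 3.38 and 6.09 against 0.347 to 1.47 and passed (adjusted p = 0.0337), and it was lower than at PLX4032 day 3, by -1.43 log2 units (adjusted p = 0.0103). Ctla4, Havcr2 and Tigit, 3 further inhibitory receptors, were at 5.73 and 9.62, at 13.4 and 23.8, and at 8.95 and 23.6, against at most 3.17, 7.16 and 4.66 in the controls, and each passed. Lag3 was at 6.10 and 30.6 against 5.09, 3.51, 4.28 and 3.42 and did not pass (adjusted p = 0.0897).

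Of 24 chemokines 7 rose and 1 fell, where 4.49% and 1.43% of all genes did. Ccl5, made by T and NK cells, was at 220.1 and 838 against 40.9, 36.9, 69.9 and 33.0, a difference of 3.28 log2 units (SE 0.63, adjusted p = 0.0337). Ccl4 was at 34.6 and 93.0 against 5.03, 3.12, 4.18 and 1.98, a difference of 3.71 (SE 0.57, adjusted p = 0.0337), and its neighbour Ccl3 at 11.95 and 31.4 against 1.35 to 3.46. Ccl2, which draws monocytes, was at 317 and 1117 against 209, 258, 119 and 145, a difference of 1.76 (SE 0.44, adjusted p = 0.0449). Cxcl12, made mainly by stromal cells, was at 362 and 257 against 155, 64.1, 357 and 126 and did not pass (adjusted p = 0.13). Cx3cl1, the membrane-bound chemokine fractalkine, fell to 14.2 and 16.8 from 61.7, 54.3, 18.7 and 44.5, a difference of -1.35 (SE 0.31, adjusted p = 0.0368).

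Among 30 cytokines and cytokine receptors 10 rose, where 4.49% of all genes did. Tnf was at 5.09 and 11.7 against 2.88, 1.42, 1.20 and 0.843, a difference of 1.83 (SE 0.31, adjusted p = 0.0337), and Il27, made by activated myeloid cells, at 3.92 and 12.4 against 0.356 to 1.62. The other 8 were Il1rn, Il18 and the receptor genes Il2rb, Il2rg, Il7r, Il12rb1, Il15ra and Il21r. Il6 and Il10 were low, at up to 1.69 and 2.76 in the treated tumours, and did not pass. Of 14 complement genes 3 rose, C3, Cfb and C2. C3, the central component, was at 79.8 and 154 against 39.7, 23.9, 24.1 and 3.02, a difference of 2.65 (SE 0.61, adjusted p = 0.0367). Cfb, a protease of the alternative route, was at 103 and 349 against 20.5 to 61.0 (adjusted p = 0.0339).

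**Figure D4:**
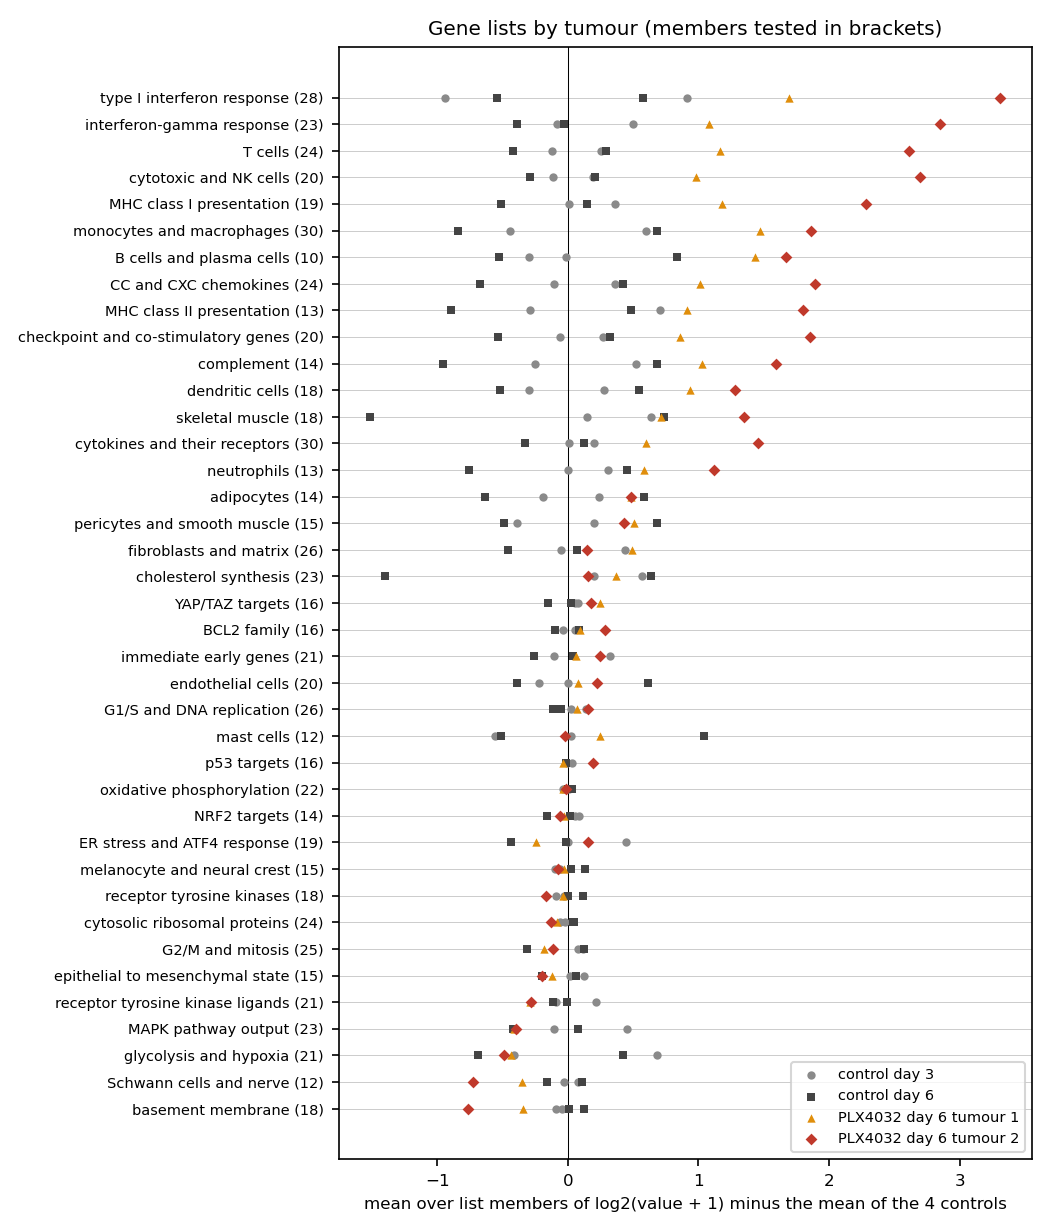
Mean over the tested members of each gene list of log2(value + 1) minus the mean of the 4 controls. All of the 40 lists are drawn but keratinocytes, of which only 3 members were tested. Grey circles are control day 3, dark squares control day 6, orange triangles PLX4032 day 6 tumour 1 and red diamonds tumour 2. Numbers in brackets are members tested. The immune lists other than mast cells lie to the right of every control in both treated tumours, with the diamond beyond the triangle. Basement membrane genes lie to the left of every control in both treated tumours. So do Schwann cells and nerve, receptor tyrosine kinase ligands and cytosolic ribosomal proteins.

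Single ERK target genes passed the test on day 6. Of 23 genes of MAPK pathway output 1 fell and 1 rose, where 1.43% and 4.49% of all genes did. The list's median difference was -0.40 log2 units. For 9 of the 23 both treated tumours lay below every control, as for 12.8% of all genes. Etv4, an ETS factor driven by ERK, fell to 42.7 and 45.1 from 90.9, 137, 60.7 and 90.8, a difference of -1.04 (SE 0.24, adjusted p = 0.0364). Etv5, its relative, was at 33.9 and 28.8 against 33.2 to 47.3 (adjusted p = 0.242). Ccnd1, cyclin D1, was at 307 and 386 against 488, 614, 331 and 478 (adjusted p = 0.18), and Fosl1, an AP-1 subunit, at 76.2 and 81.9 against 95.9 to 169 (adjusted p = 0.213). Dusp6, an ERK phosphatase, was at 126 and 154 against 112 to 172, inside the control range. Fos, the gene that rose, was at 25.6 and 24.9 against 5.00, 3.64, 8.91 and 2.97, a difference of 2.19 (SE 0.40, adjusted p = 0.0337).

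On PLX4032 day 3 several ERK targets had been lower than on day 6. Etv4 had been at 12.6 and 22.2, and its difference between day 6 and day 3 was 1.34 log2 units (adjusted p = 0.00783). Ccnd1 had been at 129.9 and 129 and differed by 1.41 (adjusted p = 0.00139), Fosl1 had been at 20.8 and 37.5 and differed by 1.46 (adjusted p = 0.0108), and Etv5 had been at 20.2 and 20.9 and differed by 0.58 (adjusted p = 0.0389). Myc was the other one of 5 list genes higher at day 6 than at day 3, and 0 were lower. Of all genes 10.9% were higher and 7.34% lower.

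Receptor tyrosine kinases, which can feed the pathway from above, showed 0 rises and 2 falls among 18 genes. Of all genes 4.49% rose and 1.43% fell. Neither of the 2 falls passed with all columns rescaled to the same sum (limma adjusted p = 0.0641 for Pdgfra and 0.0707 for Pdgfrb). Pdgfra, a receptor of growth factors for mesenchymal cells, fell to 93.4 and 77.5 from 135, 218, 137 and 264, a difference of -1.08 (SE 0.26, adjusted p = 0.0399). Pdgfrb fell to 56.4 and 34.6 from 77.2, 74.4, 62.3 and 80.4, a difference of -0.72 (SE 0.16, adjusted p = 0.0364). Egfr was at 12.2 and 8.00 against 3.00 to 11.2 (adjusted p = 0.155), and Axl was at 365 and 430.5 against 341 to 428. Met, the receptor of hepatocyte growth factor, was at 28.1 and 25.1 against 17.2 to 25.5 and did not pass (adjusted p = 0.16), but it stood above its day 3 values of 11.3 and 8.61, by 1.34 log2 units (adjusted p = 0.000233).

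Of 21 ligands of these receptors 0 passed, where 5.92% of all genes did. Areg and Ereg, ligands of EGFR, were below every control in both treated tumours. Areg was at 1.16 and 2.07 against 7.84, 23.5, 2.29 and 7.08 (adjusted p = 0.0829), and Ereg at 3.41 and 4.67 against 11.7, 41.1, 4.77 and 18.1 (adjusted p = 0.113). Vegfa, the main growth factor of blood vessels, showed how far the controls differed among themselves: it was at 91.7 and 81.3 in the treated tumours and at 91.7, 315, 91.5 and 298 in the controls. Hgf was at 7.33 and 9.44 against 7.32, 33.5, 9.47 and 21.9.

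Proliferation genes were at control levels on day 6 and far above their levels of PLX4032 day 3. Of 25 G2/M genes 0 passed against the controls, where 5.92% of all genes did. For 0 of the 25 did both treated tumours lie above, or both below, every control. Of all genes 16.2% lay above and 12.8% below in that way. All 25 G2/M genes were higher than on day 3, where 10.9% of all genes were, with a median difference of 1.79 log2 units. Mki67, a marker of cycling cells, was at 45.7 and 42.1 against 43.8 to 60.4 in the controls, and at 14.3 and 15.7 on day 3. Its difference between the days was 1.49 (adjusted p = 0.000103). Ccnb1, cyclin B1, was at 88.9 and 85.2 against 78.0 to 117, and at 20.7 and 18.3 on day 3, a difference of 2.10 (adjusted p = 3.28e-05). Of 26 genes of G1/S and DNA replication 25 were higher than on day 3, with a median of 1.40 log2 units. Mcm5, a subunit of the replicative helicase, was at 114 and 128 against 95.1 to 120 in the controls and at 37.8 and 34.9 on day 3, a difference of 1.71 (adjusted p = 5.44e-05). Ccne1, cyclin E1, was the only one of the 26 to rise against the controls, at 16.9 and 20.8 against 14.8, 11.0, 9.86 and 9.07, a difference of 0.72 (SE 0.14, adjusted p = 0.0337).

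Of 16 p53 targets 2 rose, where 4.49% of all genes did. Plk2 was at 45.3 and 43.4 against 20.2, 9.38, 36.1 and 14.7 (adjusted p = 0.0479), and Fas, a death receptor, at 8.44 and 15.3 against 6.13, 4.58, 7.01 and 4.39 (adjusted p = 0.0453). Cdkn1a, which encodes the cell cycle inhibitor p21, was at 54.2 and 69.4 against 91.1, 177, 44.3 and 108, inside the control range. Of 16 BCL2 family genes 1 rose, Bcl2a1d, a survival gene of leukocytes, at 36.8 and 59.6 against 18.1, 10.7, 15.9 and 6.22 (adjusted p = 0.0337). Bcl2a1d has a near-identical copy, Bcl2a1b, which was tested and did not pass. Mcl1, a survival gene of many cell types, was at 129.97 and 159.9 against 118, 106, 91.7 and 85.5 (adjusted p = 0.0709). Fas and Mcl1 were lower than on PLX4032 day 3, by -1.04 and -0.60 log2 units (adjusted p = 0.0268 and 0.0447). Bcl2l11, the killer protein BIM, was at 27.2 and 26.2 against 18.7 to 35.8.

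The largest falls included genes of secreted, membrane and matrix proteins, whose share among all tested genes was not counted. Glp1r, the receptor of the gut hormone GLP-1, was at 0.983 and 0.785 against 13.1, 72.1, 4.87 and 41.7, a difference of -3.58 log2 units (SE 0.81, adjusted p = 0.0367). Nptx1, a neuronal pentraxin, was at 11.7 and 3.92 against 73.0, 135, 41.1 and 156, a difference of -3.52 (SE 0.53, adjusted p = 0.0337). Ano1, a calcium-activated chloride channel, was at 3.77 and 2.11 against 30.0, 65.4, 14.5 and 53.9, a difference of -3.24 (SE 0.59, adjusted p = 0.0337). In each of these 3 genes control day 6 tumour 1 was the lowest control, and both control tumours numbered 2 were above both numbered 1. Dmp1, a phosphoprotein of mineralised matrix, was at 5.34 and 6.17 against 46.1, 52.5, 21.3 and 48.8, a difference of -2.60 (SE 0.33, adjusted p = 0.0194). Nrn1, a small membrane-anchored protein of neurons, was at 13.3 and 10.8 against 64.1, 131, 28.9 and 119, a difference of -2.52 (SE 0.49, adjusted p = 0.0337). Tnn, a tenascin, was at 10.1 and 3.49 against 20.6 to 36.3, and Cdh13, a cadherin without a transmembrane part, at 5.76 and 5.66 against 10.8 to 57.9. Ptgfr, a prostaglandin receptor, was at 1.93 and 1.86 against 6.25 to 23.9, Sybu at 1.06 and 0.344 against 3.22 to 11.1, and Murc at 1.38 and 2.17 against 4.67 to 23.3. All 5 passed. Cdh13 was lower than on PLX4032 day 3 as well, by -1.70 log2 units.

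Basement membrane genes included 3 of the falls among 18 tested, where 1.43% of all genes fell. Lama5, a laminin chain, was at 5.49 and 3.54 against 37.0, 76.7, 14.3 and 54.7, a difference of -2.87 log2 units (SE 0.55, adjusted p = 0.0337). Sned1, a secreted matrix protein, was at 19.1 and 11.4 against 52.2, 85.0, 103 and 151, a difference of -2.54 (SE 0.40, adjusted p = 0.0337). Col18a1, the collagen that carries endostatin, was at 257 and 154 against 405, 577, 377 and 571, a difference of -1.25 (SE 0.24, adjusted p = 0.0337). The median of the whole list was -0.31. Of 15 genes of the mesenchymal state 0 passed: Vim was at 4735 and 3532 against 5500, 6795, 4866 and 6069 (adjusted p = 0.14), and Cdh2 at 27.0 and 20.4 against 28.2 to 38.0 (adjusted p = 0.201), both below every control in both treated tumours. Of 15 melanocyte and neural crest genes 0 passed, and Mitf stood below its PLX4032 day 3 values of 6.55 and 10.4, by -1.28 log2 units (adjusted p = 0.0185).

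The lists of stromal and other host cells held 0 to 3 calls each, where 5.92% of all genes were called. Of 26 fibroblast genes 0 rose and 1 fell (Pdgfra, a call lost with that rescaling as given above), with a median of 0.40. Col1a1 was at 794 and 507 against 605, 361, 429 and 420.1 (adjusted p = 0.237), and Dcn was at 217 and 232 against 160.5 to 332. Of 20 endothelial genes 0 passed, and Cdh5 was at 18.9 and 16.3 against 12.9 to 24.9. Of 15 genes of pericytes and smooth muscle 1 fell (Pdgfrb, lost likewise), while Acta2 and Tagln, contractile genes, were above every control. Acta2 was at 250 and 195 against 119, 34.9, 112 and 29.3 (adjusted p = 0.0684), and Tagln at 62.8 and 76.9 against 5.45 to 39.4 (adjusted p = 0.0587). Of 14 adipocyte genes 1 rose, Pparg, at 4.83 and 3.60 against 0.454 to 1.64 (adjusted p = 0.0356), while Adipoq, which defines fat cells, was at 1.76 and 2.06 against 0.306 to 3.70. Skeletal muscle genes had a median difference of 1.12 log2 units, 0.75 in tumour 1 and 1.48 in tumour 2. Of 18 genes 0 passed, and for 6 both treated tumours lay above every control, as for 16.2% of all genes. Acta1 was at 119 and 179 against 111, 85.8, 97.6 and 10.4. Of 3 keratinocyte genes tested 0 passed. In the list for Schwann cells and nerve, 2 of 12 genes fell, Nptx1 and Nrn1, and 1 rose, Mbp, while Sox10 was near 0 as given above.

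Metabolic and stress genes showed few calls against the controls, where 5.92% of all genes were called. Of 23 cholesterol synthesis genes 0 passed, and 16 were higher than on PLX4032 day 3, where 10.9% of all genes were. Sqle, an enzyme of this route, was at 57.6 and 45.9 against 52.6, 72.7, 10.8 and 73.2 in the controls and at 8.45 and 6.30 on day 3. Control day 6 tumour 1 was the lowest control for Sqle. Of 21 glycolysis and hypoxia genes 0 passed, with a median of -0.40. Slc2a1, a glucose transporter, was at 49.6 and 58.4 against 49.9, 136, 34.1 and 82.5. Of 22 oxidative phosphorylation genes 1 fell, Ndufv1, a subunit of complex I, to 115 and 98.2 from 141, 141, 137 and 128, a difference of -0.36 (SE 0.09, adjusted p = 0.0495). Ndufv1 passed in 5 of 21 alternatives and was lost with all columns rescaled to the same sum (adjusted p = 0.0863) and with the filter at any value above 0 (adjusted p = 0.0529). Of 24 cytosolic ribosomal protein genes 0 passed, although for 13 both treated tumours lay below every control, with a list median of -0.10. Of all genes 12.8% had both treated tumours below every control.

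Of 19 genes of ER stress and the ATF4 response 0 passed against the controls. Against PLX4032 day 3, 6 of them were higher, among them the serine synthesis genes Psat1, Phgdh and Shmt2, and 2 were lower. Of all genes 10.9% were higher and 7.34% lower than on day 3. Of 14 NRF2 targets 1 rose, Me1, where 4.49% of all genes did. Of 21 immediate early genes 2 rose, Fos and Atf3. Atf3, a stress-induced factor, was at 8.14 and 22.3 against 3.74, 3.60, 3.30 and 2.35, a difference of 1.79 (SE 0.43, adjusted p = 0.0389), while Jun was at 136.7 and 139.7 against 126 to 175. Of 16 YAP/TAZ targets 1 rose, Amotl2, which restrains YAP, at 34.0 and 31.5 against 15.01 to 24.2, a difference of 0.79 (SE 0.18, adjusted p = 0.0375).

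The treated tumours were compared with each other by values only, since each is 1 sample. Tumour 2 was at least 1 log2 unit above tumour 1 for 699 genes, and tumour 1 above tumour 2 for 137. Among genes at 20 or more in the higher tumour, the largest gaps in favour of tumour 2 were in Ighg1 (0.493 and 33.7), Gzmb, Ly6i, Slfn4, Ly6c2 and Ifitm6 (3.11 and 25.3). Ighg1 encodes an antibody heavy chain and Ifitm6 belongs to the interferon-induced membrane proteins. The largest gaps in favour of tumour 1 were in Arg1, Cbr2, Mcpt2, Mfap2, Aspn and Ogn. Arg1, the arginase of macrophages, was at 20.1 and 4.51 against 0.983 to 4.51 in the controls. Mcpt2, a mast cell protease, was at 55.3 and 15.5 against 21.1 to 59.3. Mfap2, Aspn and Ogn, which encode matrix proteins, were at 90.3 and 27.0, at 80.1 and 27.5, and at 39.99 and 14.6.

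The direction of the difference between the treated tumours was also counted within lists. Tumour 2 was the higher one for 28 of 28 type I interferon genes, 23 of 23 interferon-gamma genes, 24 of 24 T cell genes, 20 of 20 cytotoxic and NK cell genes and 19 of 19 MHC class I genes. It was the higher one for 6 of 10 B and plasma cell genes, 7 of 15 genes of pericytes and smooth muscle, 6 of 26 fibroblast genes and 2 of 18 basement membrane genes. The same count over all tested genes is not given, so these counts have no background to be read against. Many members of the interferon, T cell, cytotoxic and MHC class I lists were called higher. Among all 711 genes called higher, tumour 2 was the higher one for 669, so the counts are not a result about the lists. Relative to the controls, the median of all genes was 0.011 log2 units in tumour 1 and 0.016 in tumour 2. Over all 15841 genes the log2 values of the treated tumours correlated with r = 0.976. Tumour 1 correlated with the controls at 0.953 to 0.983, and tumour 2 at 0.908 to 0.955. The controls correlated with each other at 0.962 to 0.984. These are correlations across genes, which are not independent replicates.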

How the data were processed

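RNA sequencing values of 14 tumours were used, 6 of them in the main comparison. The authors' deposited file holds an expression signal for each gene symbol. It is named for TPM, yet its column totals range from 879385 to 1084401 and 5 of them are above what TPM allows, so the values were not taken as TPM. How they were scaled is not stated. Of the rows, 54 hold the values of another row. The mm10 build and the tools kallisto and sleuth appear in the submitters' processing notes, without versions. Without counts there is no depth per tumour and no counting interval. Strand use is unknown, so a gene and its antisense partner cannot be told apart.

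From these values log2(value + 1) was taken for the 15841 of 18481 genes at 1 or more in at least 2 columns. The filter and the test had been set for TPM and were kept. limma 3.58.1 (R 4.3.3) was fitted to 6 group means over all 14 columns, with a variance trend, for PLX4032 day 6 minus the mean of both control groups and for PLX4032 day 6 minus PLX4032 day 3. Tests were 2-sided, p-values were adjusted over all genes by the Benjamini-Hochberg method, and 0.05 was the threshold. Fold changes on this scale understate the change of low genes. The script was tested on simulated data. Where leaving out a tumour leaves 1 in its group, its variance is taken to equal that of the rest. The 4 tumours of day 27 entered as separate samples although they come from 2 mice.

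The 40 gene lists, of which 721 genes were tested (37 in more than 1 list, 145 called higher and 10 lower), and the members were chosen with earlier results of these data known. Named genes are, first, the called genes whose treated tumours lie outside the control range and whose mean reaches 5 in either group, of which the 12 with the largest rise and the 12 with the largest fall were taken, without predicted genes, pseudogenes, clone names and receptor or antibody segments. To these come the fixed members of each list, up to 4 members of each list with the smallest p, and the 6 largest gaps in each direction between the treated tumours. List members outside this rule are named without values. Promoters come from the RefSeq table on GRCm38.p6, in which 2172 tested genes have more than 1. Figures were drawn with matplotlib 3.10.9. Alternatives were other pseudocounts (0.1 and 5), filters, scalings, references and fits, and leaving out each tumour. Some genes that the rule names are not reported here.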

Additional observations from a re-analysis of the deposited data

Results flagged for a closer look

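In 6 of 161 values tested, 1 of the 4 control tumours stood apart from the other 3, where chance alone flags about 1 in 20. Cxcl10 was at 144.2 and Ifng at 1.345 in control day 3 tumour 1, each the highest control. Ncr1 was at 3.369 in control day 6 tumour 1. As means over a list relative to the 4 controls, G2/M genes were at -0.313 and keratinocyte genes at 1.275 log2 units in control day 6 tumour 1, and p53 targets were at 0.031 in control day 3 tumour 1.

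For 17 named genes the PLX4032 day 6 and day 3 tumours differed in the limma test of that difference, on the log2(value + 1) scale. Higher on day 6 were Ccnb1 (2.1047), Mcm5 (1.7051), Mki67 (1.4867), Fosl1 (1.463), Ccnd1 (1.4062), Met (1.343), Etv4 (1.3389), Ccne1 (1.0037) and Etv5 (0.58). Lower on day 6 were Retnla (-3.596), Ciita (-1.7281), Cdh13 (-1.6974), Cd68 (-1.4806), Pdcd1lg2 (-1.4269), Mitf (-1.2751), Fas (-1.0366) and Mcl1 (-0.5989).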

How the results depend on the processing

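Against 937 called genes (711 higher, 226 lower), rescaling the columns to the same sum gave 1268 (1145 higher, 123 lower, 90.3% higher against 75.9%) and moved the median of all genes to 0.083. Quantile normalisation gave 1189 (718 higher, 471 lower, 60.4% higher) and a median of -0.080. The compared groups alone gave 0 calls, in either direction, and 3 (3 higher, 0 lower) with the controls as 1 group. Control day 3 alone as reference gave 0, with 3195 genes at an unadjusted p under 0.05, and control day 6 alone gave 8 (8 higher, 0 lower). The fit without day 27 gave 1 (1 higher, 0 lower). Leaving out 1 tumour gave 0 to 2145 calls, 0 to 1517 higher and 0 to 628 lower. The cause of these changes was not tested, though fits with fewer tumours estimate the spread from less. Filters, pseudocounts, median-of-ratios rescaling, no variance trend and sample weights gave 651 to 1009 calls. A rescaling without 5 abundant noncoding rows, chosen after seeing the data, gave 990.

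Of 79 named genes called, 70 to 79 were called again under each setting that kept all tumours, both control groups and the shared spread, and 0 to 6 under the others, apart from 67 without treated tumour 1, 77 without control day 3 tumour 1 and 78 without control day 6 tumour 1. Beside Pdgfra, Pdgfrb and Ndufv1, the calls lost under at least 1 scaling, filter, pseudocount, trend or weight setting were B2m, Irf7, Ighm, Pdcd1, Ctla4, Ccl2, Plk2, Fas, Glp1r, Murc and Atf3. Prf1 ran from -0.599 without treated tumour 2 to 1.456 without treated tumour 1. The 2892 genes that differed between PLX4032 day 6 and day 3 became 1074 to 2074 when 1 tumour was left out. No paired analysis was possible because the treated day 6 tumours share no animal number with the controls or with the treated day 3 tumours in the labels and the columns carry none.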
